A study of Homo sapiens with 24 samples.

Results

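The small nucleolar RNA host genes are long noncoding RNA genes whose introns carry small nucleolar RNAs (snoRNAs). They were chosen by name, as the genes whose symbol is SNHG followed by a number, together with GAS5, ZFAS1, EPB41L4A-AS1 and DANCR. Of the 60236 genes in the count table, 29 were members. The symbol table lists 32 such symbols, and SNHG6, SNHG9 and SNHG19 were not analysed here. RNA sequencing was performed on 24 libraries, 3 replicates of each of 8 groups, which combine 2 human cell lines with 4 plasmids. HEK293T is a line from embryonic kidney that carries the SV40 large T antigen, and A549 is a lung adenocarcinoma line. The snaR-A plasmid expresses snaR-A, a small noncoding RNA, from the U6 promoter, and the scramble plasmid expresses a shuffled snaR-A sequence from the same promoter. The SF3B2 plasmid expresses tagged SF3B2, a protein of the U2 small nuclear ribonucleoprotein of the spliceosome, from pcDNA3.1, and the eGFP plasmid expresses tagged eGFP from that backbone. Every group was transfected with a Lipofectamine reagent and collected 48 h later without a sort for transfected cells, and no untransfected group is used here. The eGFP and scramble groups therefore differ in backbone, promoter and product at once. The libraries were depleted of ribosomal RNA and enriched for poly(A)+ RNA, so that they measured polyadenylated host transcripts. The counts per gene do not separate spliced transcripts from those that keep an intron.

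A host transcript is spliced and polyadenylated like an mRNA, while the snoRNAs are trimmed out of its excised introns. Box C/D snoRNAs guide 2'-O-methylation of ribosomal RNA, box H/ACA snoRNAs guide its pseudouridylation, and small Cajal body RNAs (scaRNAs) guide the same modifications of spliceosomal RNAs. Several host transcripts, GAS5 foremost, have the terminal oligopyrimidine start of ribosomal protein mRNAs, are bound by ribosomes and are removed by nonsense-mediated decay (NMD), so that their level follows translation and growth. In GENCODE 44, 28 of the 29 genes held 141 annotated small RNAs, of which 108 were box C/D snoRNAs, 25 were box H/ACA snoRNAs and 4 were scaRNAs. Some loci, such as SNORA16A of SNHG12, have more than 1 overlapping record in that total. By these records, and GAS5 by its known snoRNAs, 11 genes were box C/D hosts and 11 were box H/ACA hosts. Both kinds were carried by 2 (SNHG12 and SNHG25), 4 were scaRNA hosts, and 1 (SNHG28) carried a small RNA whose name gives no class. SNHG14, the long transcript of the Prader-Willi region of chromosome 15, held 84 of the box C/D snoRNAs.

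Some small RNAs of the 4 hosts that moved most clearly in HEK293T cells, and 1 of ZFAS1, are shown as examples of what the introns encode. SNHG17 carries 5 annotated small RNAs and SNHG1 carries 7, and not all are shown. Those shown all hold the motifs marked. They were read from the GENCODE 44 transcripts on GRCh38. SNORA9 lies in SNHG15 at chr7:44985378-44985510 (minus strand). SNORA71A, SNORA71C and SNORA71D lie in SNHG17 at chr20:38427309-38427442, chr20:38429670-38429803 and chr20:38433865-38433998 (minus strand). SNORA73A and SNORA73B lie in SNHG3 at chr1:28507366-28507571 and chr1:28508559-28508762 (plus strand). Capitals mark the last ACA in the final 8 bases of these box H/ACA snoRNAs.
SNORA9: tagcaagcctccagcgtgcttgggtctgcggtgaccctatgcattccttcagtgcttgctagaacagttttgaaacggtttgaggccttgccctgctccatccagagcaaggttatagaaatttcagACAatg
SNORA71A: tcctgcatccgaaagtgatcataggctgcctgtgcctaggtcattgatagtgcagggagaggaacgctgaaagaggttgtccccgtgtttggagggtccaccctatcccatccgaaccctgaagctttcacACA
SNORA71C: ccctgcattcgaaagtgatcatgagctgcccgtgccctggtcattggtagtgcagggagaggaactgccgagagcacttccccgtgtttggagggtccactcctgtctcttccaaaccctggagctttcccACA
SNORA71D: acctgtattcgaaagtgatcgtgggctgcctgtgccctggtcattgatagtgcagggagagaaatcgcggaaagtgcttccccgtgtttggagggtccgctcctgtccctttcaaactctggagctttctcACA
SNORA73A: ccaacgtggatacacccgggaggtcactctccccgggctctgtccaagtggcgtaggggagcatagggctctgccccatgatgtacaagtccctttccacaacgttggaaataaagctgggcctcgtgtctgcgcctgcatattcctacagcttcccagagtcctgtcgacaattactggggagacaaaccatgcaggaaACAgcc
SNORA73B: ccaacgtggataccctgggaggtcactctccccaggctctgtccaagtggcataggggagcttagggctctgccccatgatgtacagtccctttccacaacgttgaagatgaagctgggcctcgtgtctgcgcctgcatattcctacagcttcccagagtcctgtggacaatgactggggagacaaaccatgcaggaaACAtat
The box C/D snoRNAs SNORD25, SNORD26, SNORD27 and SNORD28 lie in SNHG1 at chr11:62855564-62855632, chr11:62855292-62855366, chr11:62855012-62855083 and chr11:62854621-62854695 (minus strand), and SNORD12B lies in ZFAS1 at chr20:49280319-49280409 (plus strand). Here capitals mark GATGA, the core of box C, in the first 20 bases, and CTGA, box D, in the last 15 bases.
SNORD25: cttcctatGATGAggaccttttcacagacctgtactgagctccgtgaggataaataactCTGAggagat
SNORD26: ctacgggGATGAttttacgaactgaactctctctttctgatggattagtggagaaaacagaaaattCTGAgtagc
SNORD27: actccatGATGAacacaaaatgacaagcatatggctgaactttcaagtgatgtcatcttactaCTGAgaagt
SNORD28: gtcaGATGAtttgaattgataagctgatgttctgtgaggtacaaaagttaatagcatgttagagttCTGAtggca
SNORD12B: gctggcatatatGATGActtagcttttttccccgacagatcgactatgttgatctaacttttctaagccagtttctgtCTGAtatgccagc
Both box C/D motifs were held, on the transcribed strand, by 66.5% of the 313 SNORD transcripts in the annotation and by 0 of the 214 SNORA transcripts. The ACA was held by 82.2% of the SNORA and by 6.07% of the SNORD transcripts. SNORA73A and SNORA73B were identical at 93.2% of 206 aligned positions, a likeness that makes reads between them hard to assign. The 3 SNORA71 copies shown were identical at 83.1 to 86.6% of positions, whereas SNORD27 and SNORD28 of SNHG1 were identical at 55.6%.

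The start sites of 6 hosts are shown with the pyrimidine runs near them. Such a run need not begin at the start, so it does not by itself show a terminal oligopyrimidine start. The sequences are from RefSeq on GRCh38.p14 and run from 15 bases before the annotated start to 25 bases from it on, so that the start is base 16. They lie at chr11:62855861-62855900 (SNHG1, minus strand), chr1:28505928-28505967 (SNHG3, plus strand), chr6:85678709-85678748 (SNHG5, minus strand), chr1:28581849-28581888 (SNHG12, minus strand), chr20:49278627-49278666 (ZFAS1, plus strand) and chr20:38435304-38435343 (SNHG17, minus strand). Capitals mark the longest run of C and T that reaches into the 5 bases before or after the start.
SNHG1: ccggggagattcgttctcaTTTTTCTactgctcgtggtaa
SNHG3: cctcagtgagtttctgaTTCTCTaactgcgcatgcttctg
SNHG5: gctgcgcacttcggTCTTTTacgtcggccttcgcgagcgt
SNHG12: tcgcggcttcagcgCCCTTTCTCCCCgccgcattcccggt
ZFAS1: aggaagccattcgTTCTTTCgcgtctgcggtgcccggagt
SNHG17: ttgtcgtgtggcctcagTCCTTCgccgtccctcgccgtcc
Of the 27 hosts with such a sequence, 18 (66.7%) had a run of at least 5 pyrimidines there, as did 34.2% of all 35116 promoters in the table. SNHG17, which rose in HEK293T cells, and SNHG1, SNHG3 and SNHG5, which fell, all had such a run. Relative to the start, the run began at 4 in SNHG1 and at 2 in SNHG3 and SNHG17. It began at -1 in SNHG5 and SNHG12 and at -2 in ZFAS1. At the RefSeq start of GAS5 the longest run was 3 bases.

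Library totals lay between 195186194 and 260878268 counts. SF3B2 stood at 24050 to 37670 TMM CPM in HEK293T libraries with the SF3B2 plasmid and at 293 to 367 in the other HEK293T libraries. TMM CPM are library-size-scaled read counts (CPM) after trimmed-mean scaling over all 24 libraries. In A549 it stood at 45570 to 48890 with the SF3B2 plasmid and at 296 to 372 in the others except scramble replicate 3, which had 8773. The 6 A549 marker genes summed to 15390 to 16680 CPM in A549 libraries and to 3.81 to 19.3 in HEK293T libraries other than eGFP replicate 3, which had 590. The 6 HEK293T marker genes summed to 441 to 793 CPM in HEK293T and to 158 to 197 in A549, and 5 of them were higher in HEK293T while INA was higher in A549. A549 snaR-A replicate 3, whose label fields disagree on the line, had 15390 CPM of the A549 markers. Within HEK293T the summed HEK293T markers were themselves highest with scramble, at 724 to 793 CPM, beside 499 to 549.2 with snaR-A, 441 to 449 with eGFP and 469 to 582 with SF3B2, and their part in the comparisons against scramble was not tested. For several results that rest on A549 scramble replicate 3 or on HEK293T eGFP replicate 3, though not for all, values without that library are also given.

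HEK293T and A549 differed in most host genes (12 libraries of each line, edgeR's quasi-likelihood test with the plasmid as a term). Of 25 members tested, 21 differed at an adjusted p under 0.05, a share of 84.0% beside 83.8% of all genes tested. In 15 members the level was lower in HEK293T (41.7% of all genes) and in 6 it was higher (42.1%). The difference was above 2-fold in 10 called members (47.4% of all genes), and the libraries of the lines did not overlap in 10 members (52.3%). The median difference was -0.31 on the log2 scale (HEK293T minus A549) over the members and 0.01 over all genes. Normalization by library size alone shifted the median of all genes to 0.47, and then 10 members were called higher and 9 lower in HEK293T. The share of all genes called in that fit is not given here. SNHG5, SNHG7, SNHG16, SNHG20 and SNHG29, whose differences in the main fit were between -0.46 and -0.20, changed sign with that shift.

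Of 10 box C/D hosts tested, 7 were lower in HEK293T and 2 higher, beside 41.7% and 42.1% of all genes. SNHG5, SNHG16 and SNHG29 among the lower hosts changed sign with library size alone, so this split depends on the normalization. SNHG14 showed the widest gap of all members. It read between 130 and 158 TMM CPM in the A549 libraries (median 142) and between 0.671 and 7.41 in the HEK293T libraries (median 1.15), a log2 difference of -6.66 ± 0.34 (SE, adjusted p = 7.28e-15). The HEK293T maximum was eGFP replicate 3, the library with the A549 markers, and without it the difference was -7.02, still with 21 members called. ZFAS1, a host of 3 box C/D snoRNAs antisense to ZNFX1, read 30.98 to 47.8 in A549 (median 39.1) and 6.24 to 8.58 in HEK293T (median 7.74), a log2 difference of -2.31 ± 0.07 (adjusted p = 2.35e-19). SNHG26 was lower by -1.53 ± 0.06, with 8.89 to 11.5 CPM in A549 and 2.88 to 4.86 in HEK293T. SNHG1, the host of SNORD25 to SNORD28, was lower by -0.96 ± 0.08. SNHG30 was higher in HEK293T by 1.47 ± 0.40, with libraries that overlapped, and in the 6 scramble libraries alone its adjusted p was 0.052. GAS5 differed least among the called members (0.18 ± 0.06), and its libraries overlapped widely.

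Box H/ACA hosts went both ways, with 3 of 10 tested higher in HEK293T and 5 lower, beside 42.1% and 41.7% of all genes. SNHG7 among the lower hosts changed sign with library size alone, and SNHG17 lost its call (adjusted p = 0.753). SNHG15, the host of SNORA9, read 24.7 to 65.6 CPM in HEK293T (median 48.8) and 9.55 to 15.3 in A549 (median 12.8), a log2 difference of 1.73 ± 0.13 (adjusted p = 1.75e-11). DANCR, the host of SNORA26 known as an inhibitor of differentiation, read 25.6 to 38.6 in HEK293T (median 34.2) and 12.2 to 17.98 in A549 (median 15.5), a difference of 1.11 ± 0.06. EPB41L4A-AS1, the host of SNORA13, was lower in HEK293T by -1.52 ± 0.07, at 7.09 to 10.1 CPM against 21.2 to 31.9. SNHG3, the host of SNORA73A and SNORA73B, was lower by -1.07 ± 0.06, and SNHG4, the host of SNORA74A, by -0.75 ± 0.04. SNHG3 shares 16.3% of its short sequence words of 31 bases with other genes, RCC1 first, and SNHG4 shares 21.2%, MATR3 first, so part of their counts may belong to those overlapping genes. SNHG12, which carries both kinds of snoRNA, was lower by -1.005 ± 0.06. SNHG32 missed the threshold (1.62 ± 0.79, adjusted p = 0.0623), and in the scramble libraries alone it was called in the opposite direction (-3.12, adjusted p = 0.00486).

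**Figure D1:**
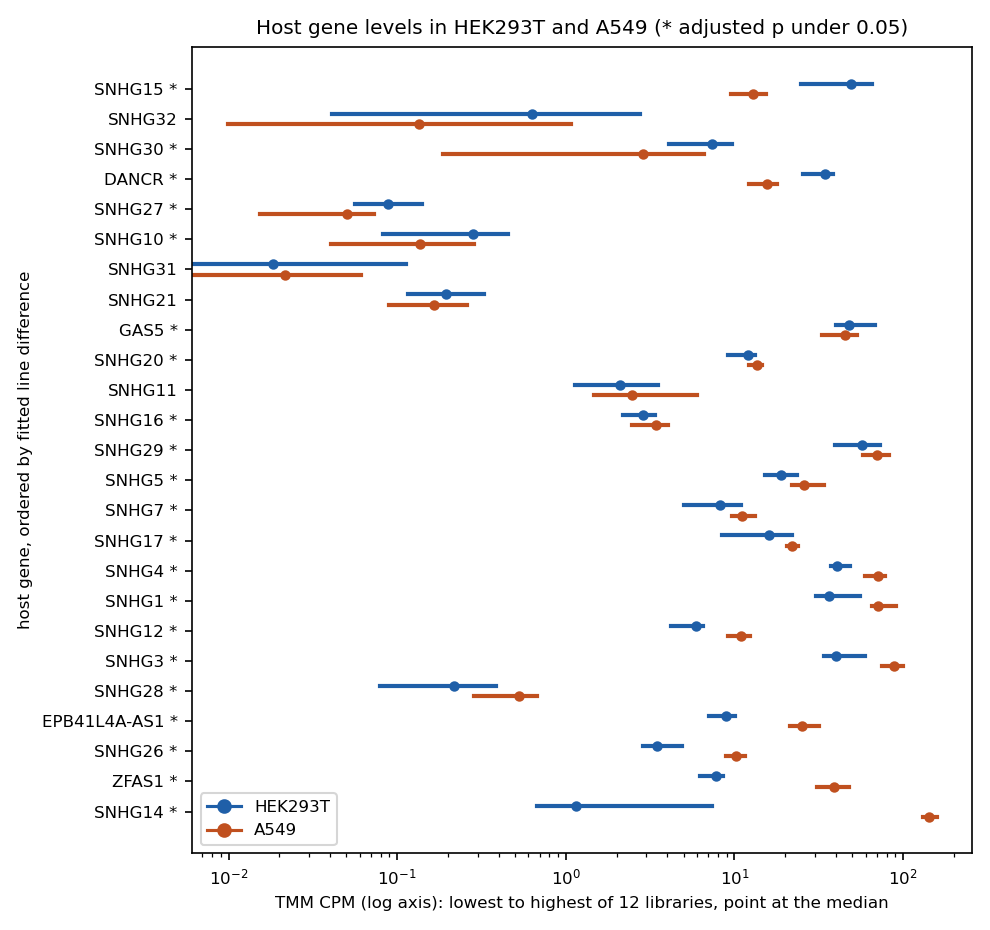
Level of each host gene tested in the 12 HEK293T and 12 A549 libraries, in TMM CPM on a log axis, as the lowest, median and highest library, ordered by the fitted difference (ranges that reach 0 run off the axis). SNHG14 at the bottom and SNHG15 at the top show lines that do not overlap, while GAS5 overlaps.

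The members together took 437 ± 16.2 CPM (SD, n = 3) in HEK293T scramble libraries, 409 ± 11.5 with snaR-A, 409 ± 4.73 with eGFP and 352 ± 18.1 with SF3B2. In A549 the sums were 695 ± 30.5 with scramble, 710 ± 36.1 with snaR-A, 676 ± 43.9 with eGFP and 652 ± 7.87 with SF3B2. The sums were not tested. Without SNHG14 the A549 sums were 548, 562, 541 and 508 in the same order.

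In HEK293T cells the snaR-A plasmid was compared with scramble. The eGFP plasmid, which does not express snaR-A, gave changes of like size in SNHG15, SNHG3 and SNHG1 against the same scramble libraries. Those values are given below, so in these 3 genes the change was not particular to the snaR-A plasmid. SNHG5, SNHG17, SNHG29, SNHG32 and GAS5 were also called with eGFP, each in the same direction as with snaR-A. SNHG20 (0.25, adjusted p = 0.0140) and SNHG7 (-0.21, adjusted p = 0.0355) passed with eGFP under DESeq2. None of the changes called here is therefore read as particular to the snaR-A plasmid. Host genes split in direction. SNHG15 rose to 2.07 times its scramble level and SNHG17 rose to 1.56 times, while SNHG1, SNHG3, SNHG5, SNHG7, SNHG29 and GAS5 fell. Of 24 members tested, 10 passed an adjusted p of 0.05, a share of 41.7% beside 36.3% of all genes tested. Of these, 4 were higher (17.8% of all genes) and 6 lower (18.5%). With library size alone, where the median of all genes was 0.09, the split was 4 higher and 3 lower, beside 37% of all genes called. The median log2 fold change was -0.09 over the members and -0.01 over all genes. Only SNHG15 and SNHG32 passed with a change above 2-fold, which 4.74% of all genes did. The groups did not overlap in 11 members (50.4% of all genes). In a bulk culture, a change in level cannot be told apart from a change in the share of cells that express the gene.

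SNHG15 (chromosome 7, 44983019 to 44986961, GRCh38) read 27.0, 26.5 and 24.7 CPM in the 3 scramble libraries and 52.1, 57.8 and 52.2 in the 3 snaR-A libraries. Every snaR-A library lay above every scramble library. The log2 fold change was 1.06 ± 0.05 (SE, adjusted p = 0.000156). SNHG17 (chromosome 20, 38419638 to 38435409), the host of the SNORA71 group, read 10.9, 8.46 and 11.9 with scramble and 15.3, 16.2 and 17.5 with snaR-A, again with no overlap, a change of 0.65 ± 0.12 (adjusted p = 0.00386).

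SNHG32, a box C/D host in the major histocompatibility region, rose by 3.68 ± 0.73 (adjusted p = 0.00562), but it was near the lower end of detection. It read 0.0450, 0.0630 and 0.0410 CPM with scramble and 0.264, 0.259 and 1.41 with snaR-A, and 22.3% of its sequence words occur in other genes, chiefly an overlapping gene on the same strand. SNHG20, a scaRNA host, rose by 0.28 ± 0.09 (adjusted p = 0.0456) with groups that overlapped.

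SNHG3 (chromosome 1, 28505980 to 28510892) fell from 59.4, 56.5 and 57.2 CPM to 40.0, 36.8 and 41.5, with no overlap, a change of -0.54 ± 0.05 (adjusted p = 0.000410). SNHG1 (chromosome 11, 62851978 to 62855953) fell from 55.2, 42.2 and 50.8 to 32.6, 34.4 and 36.5, a change of -0.51 ± 0.09 (adjusted p = 0.00367). The lowest scramble library of SNHG1 still lay above the highest snaR-A library. SNHG7 (chromosome 9, 136721366 to 136728184) fell from 10.6, 9.24 and 10.9 to 7.57, 7.71 and 7.96 (-0.39 ± 0.08, adjusted p = 0.00540). SNHG5 (chromosome 6, 85650491 to 85678932) fell from 23.2, 23.6 and 20.6 to 19.2, 18.4 and 19.3 (-0.23 ± 0.06, adjusted p = 0.0150).

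The changes of GAS5 (-0.28 ± 0.08) and SNHG29 (-0.19 ± 0.06) were smaller, and the GAS5 libraries overlapped between the groups. SNHG1, SNHG3, SNHG7, SNHG15, SNHG17 and SNHG32 passed in each fit that left out 1 of the 6 libraries. GAS5, SNHG20 and SNHG29 each lost the call in 4 of those fits and SNHG5 in 2. Without scramble replicate 1 or without snaR-A replicate 2 the count was thus 6, beside 25% and 22.1% of all genes. By class, 1 box C/D host rose and 4 fell of 10 tested, and 2 box H/ACA hosts rose and 2 fell of 9, beside 17.8% of all genes higher and 18.5% lower.

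**Figure D2:**
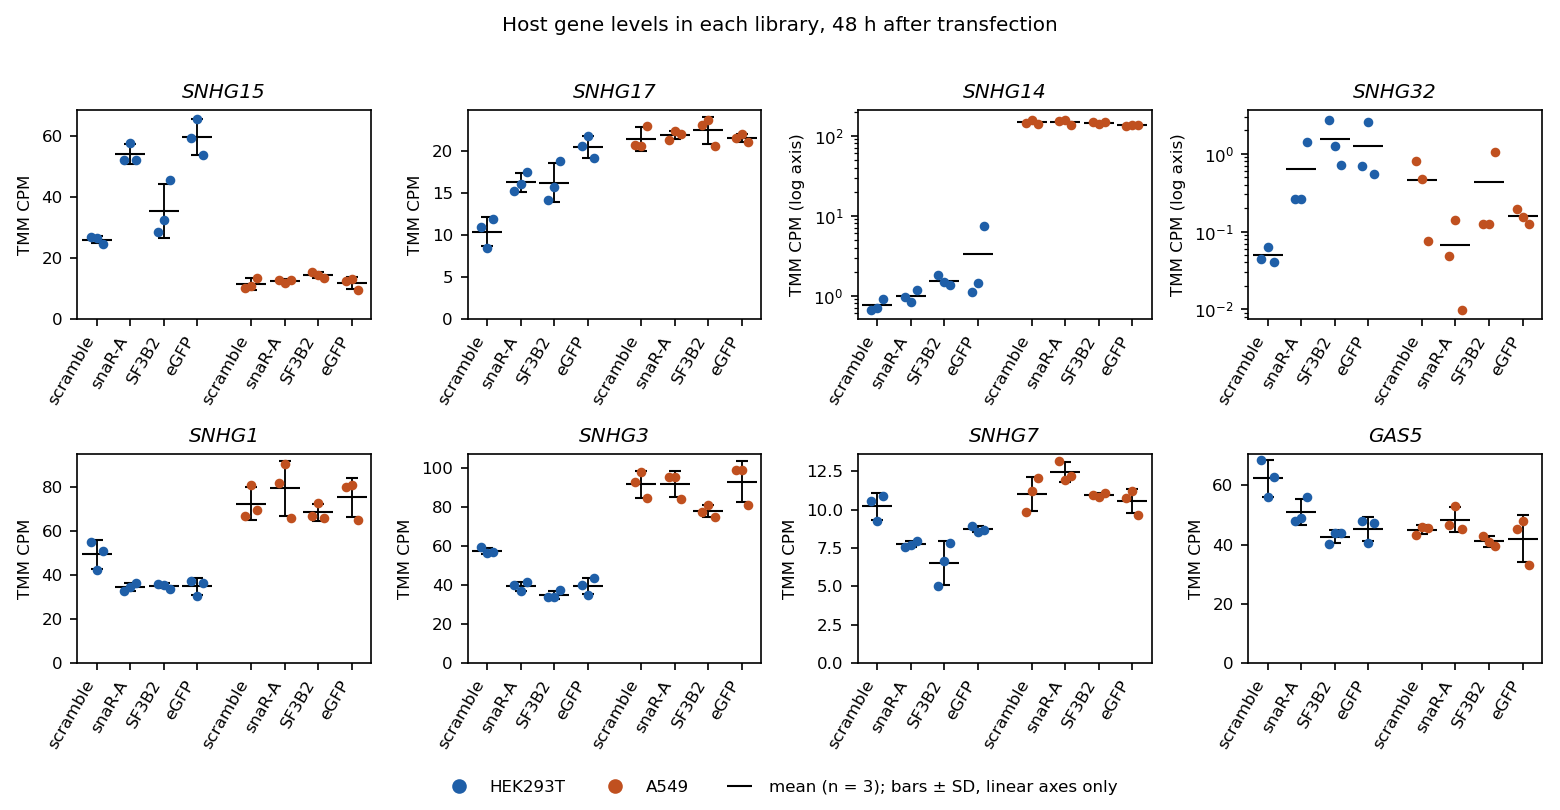
TMM CPM of 8 host genes in each of the 24 libraries (points), with group means as dashes and SD bars (n = 3) on the linear axes; SNHG14 and SNHG32 are on log axes without bars. SNHG15 and SNHG17 are lowest with scramble among HEK293T groups, SNHG1 and SNHG3 are highest there, and in A549 the SF3B2 libraries of SNHG15 lie just above those of the other groups while the 4 groups of SNHG17 overlap.

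The eGFP and SF3B2 plasmids were also set against scramble in HEK293T cells. These 2 comparisons share their 3 scramble libraries with each other and with the snaR-A comparison, so their values are given side by side and no overlap between them is counted as a result. With eGFP, 12 of 24 members passed, beside 48.8% of all genes, 5 higher (22.9% of all genes) and 7 lower (25.8%). Above 2-fold there were 4 (11.1%), and the groups did not overlap in 16 members (59.3%). With library size alone, where the median of all genes was 0.10, the split was 7 higher and 4 lower, beside 48.4% of all genes called. With SF3B2, 11 of 24 passed (45.8%, beside 34.3% of all genes), 3 higher (16.8%) and 8 lower (17.5%). Above 2-fold there were 2 (8.01%), and the groups did not overlap in 15 members (50.3%). With DESeq2 the split for SF3B2 was 5 higher and 8 lower, beside 38.6% of all genes called.

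SNHG15 read 59.5, 65.6 and 53.7 CPM with eGFP, a change of 1.19 ± 0.08 against scramble (adjusted p = 8.52e-05), and its levels overlapped those with snaR-A. With SF3B2 it read 28.5, 32.5 and 45.4, all above scramble, with a change of 0.45 ± 0.16 that did not pass (adjusted p = 0.0623). It passed with the exact test (adjusted p = 0.0297), with DESeq2 (0.0146), with at least 10 counts required in every library (0.0441), with all 12 HEK293T libraries in one fit (0.0280) and without SF3B2 replicate 1 (0.0142). SNHG17 read 20.6, 21.8 and 19.2 with eGFP (0.98 ± 0.12, adjusted p = 0.000724) and 14.2, 15.7 and 18.8 with SF3B2 (0.64 ± 0.15, adjusted p = 0.0154). Both SNHG17 groups lay above every scramble library, and the call with SF3B2 was lost without scramble replicate 1 (adjusted p = 0.0511).

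SNHG3 read 40.1, 35.1 and 43.6 with eGFP (-0.54 ± 0.08, adjusted p = 0.00121) and 34.0, 33.8 and 37.6 with SF3B2 (-0.71 ± 0.06, adjusted p = 0.000867). SNHG1 read 37.4, 30.5 and 36.6 with eGFP (-0.50 ± 0.11, adjusted p = 0.00813) and 36.0, 35.6 and 33.7 with SF3B2 (-0.49 ± 0.10, adjusted p = 0.00916). In both genes every library with these plasmids lay below every scramble library. GAS5, whose introns carry a series of box C/D snoRNAs, read 68.5, 56.0 and 62.7 with scramble, 48.0, 40.5 and 47.3 with eGFP (-0.46 ± 0.09, adjusted p = 0.00467) and 40.1, 44.1 and 43.8 with SF3B2 (-0.54 ± 0.08, adjusted p = 0.00359). Here neither group overlapped scramble.

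SNHG29, the host of SNORD49A, SNORD49B and SNORD65, read 66.2, 72.6 and 61.5 with scramble and 39.3, 42.2 and 51.3 with SF3B2 (-0.59 ± 0.11, adjusted p = 0.00672). SNHG29 was also called lower with eGFP. That call was lost without eGFP replicate 1 (adjusted p = 0.0539) and with library size alone (adjusted p = 0.0707). SNHG7 fell with SF3B2 to 5.00, 6.66 and 7.86 CPM (-0.65 ± 0.16, adjusted p = 0.0202), a call that was lost without scramble replicate 1, scramble replicate 3 or SF3B2 replicate 2. SNHG26 fell with eGFP from 4.07, 3.67 and 4.86 to 3.10, 2.88 and 3.51 (-0.41 ± 0.14, adjusted p = 0.0396). The SNHG26 groups were separated by a narrow margin, and the call was lost in 4 of 6 fits without 1 library. DANCR fell with eGFP (-0.22 ± 0.05) and with SF3B2 (-0.40 ± 0.07), SNHG5 fell with eGFP (-0.33 ± 0.07), and SNHG30 fell with SF3B2 (-0.54 ± 0.15). With SF3B2, SNHG5 was not called in the main fit. It passed as lower with the exact test (-0.33, adjusted p = 0.0429), DESeq2 (-0.32, 0.0295) and all 12 HEK293T libraries in one fit (-0.35, 0.00857). It did not pass with at least 10 counts required in every library, and of the fits without 1 library it passed only without SF3B2 replicate 1 (0.0125). The SNHG30 call was lost in 3 of 6 fits without 1 library (adjusted p up to 0.101) and with the replicate number as a block (adjusted p = 0.0651), and that of DANCR with eGFP was lost with library size alone (adjusted p = 0.114).

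SNHG14 in HEK293T cells read 0.671, 0.696 and 0.903 with scramble, 0.971, 0.827 and 1.18 with snaR-A, 1.81, 1.47 and 1.35 with SF3B2, and 1.12, 1.44 and 7.41 with eGFP. The eGFP group lay above scramble (2.14 ± 0.69, adjusted p = 0.0354), but the third library stood far from the other two. That library is the one with 590 CPM of A549 markers, and A549 libraries hold at least 130 CPM of SNHG14. Whether A549 RNA accounts for the reading was not tested. Without it the change was 0.76 and the call remained, but the call was lost when any 1 of the 3 scramble libraries was left out (adjusted p up to 0.108). With SF3B2 the change was 1.04 ± 0.18 (adjusted p = 0.00552). It did not pass when all 12 HEK293T libraries were fitted together (adjusted p = 0.167). The A549 markers were at 6.24, 6.08 and 19.3 CPM in those libraries. SNHG32 rose with eGFP (4.66 ± 0.67) and with SF3B2 (4.97 ± 0.55), from readings that spread from 0.555 to 2.55 and from 0.713 to 2.75 CPM. SNHG10, a scaRNA host near the detection limit, rose with eGFP (1.26 ± 0.40), a call lost in 3 of the 6 fits without 1 library (adjusted p up to 0.101). SNHG21 fell with SF3B2 (-0.73 ± 0.22), a call lost in each of the 6 such fits. Without eGFP replicate 3, 13 of 25 members passed against scramble, 5 higher and 8 lower, beside 46.5% of all genes.

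**Figure D3:**
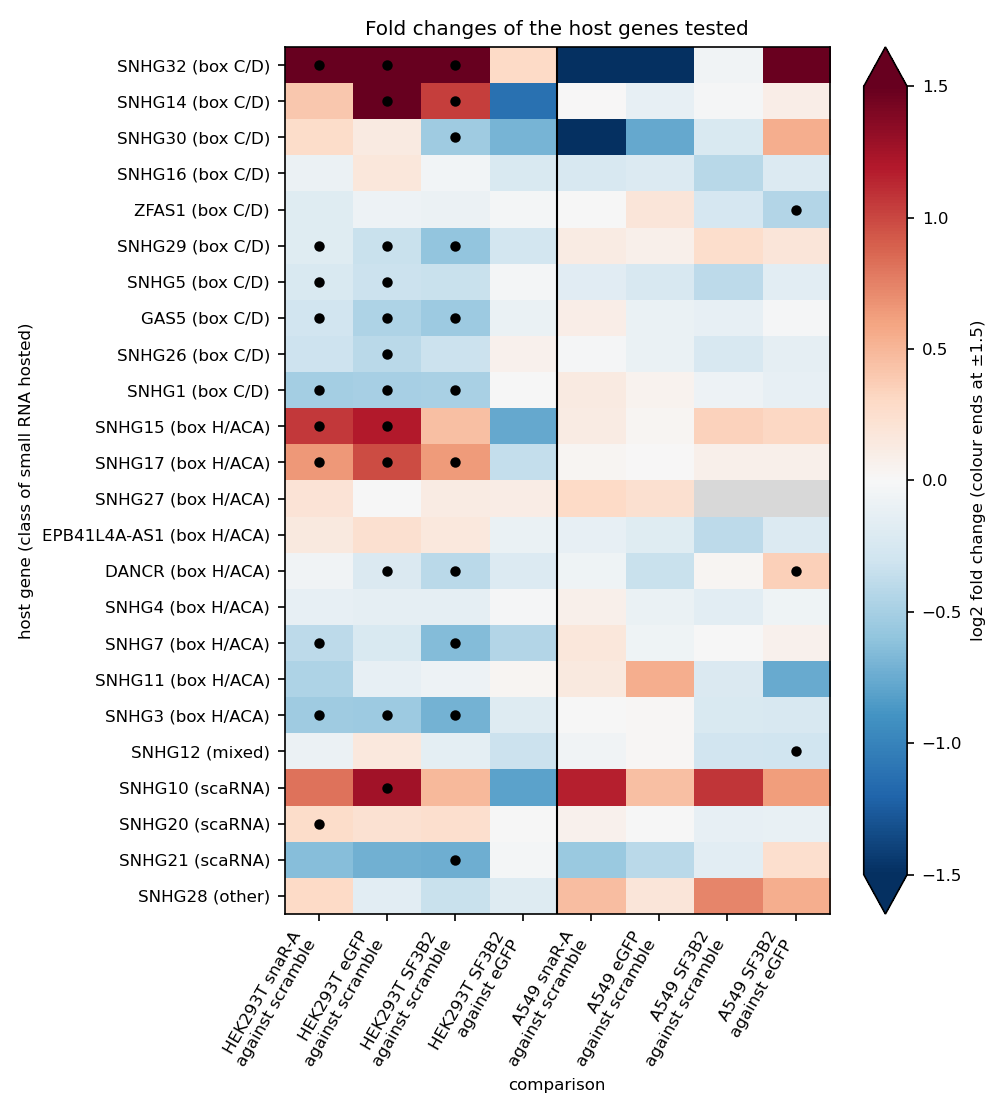
Log2 fold change of each host gene tested in the 8 comparisons of plasmids, HEK293T left and A549 right of the line, grouped by the class of small RNA hosted; black points mark an adjusted p under 0.05, grey marks genes not tested, and colours end at 1.5 in either direction. The calls against scramble sit in the HEK293T columns, 10, 12 and 11 in number, and the 3 calls in A549 are those of SF3B2 against eGFP.

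SF3B2 was then compared with eGFP, which shares its backbone. In HEK293T cells, 0 of 24 members passed with edgeR's quasi-likelihood test, beside 0.172% of all genes, and 6 had an unadjusted p under 0.05. SNHG15 was at 0.595 of its eGFP level (-0.76 ± 0.17, adjusted p = 0.110), and SNHG30 at 0.625 (-0.69 ± 0.13, adjusted p = 0.0884). Both passed with edgeR's exact test (adjusted p = 0.00432 and 0.0349, beside 2.85% of all genes), with DESeq2, where SNHG17 joined them (9.19%), and when all 12 HEK293T libraries were fitted together (8.69%). SNHG15, SNHG17 and SNHG30 also passed without SF3B2 replicate 3, beside 8.09% of all genes. The SNHG15 level of that library, 45.4 CPM, was above those of the other SF3B2 libraries, and its SF3B2 level of 24050 CPM was below theirs. Among the members tested, 20 had a negative and 4 a positive estimate, with a median of -0.14 beside -0.02 over all genes. The shares of all genes with a negative estimate or with an unadjusted p under 0.05 are not given here. Such counts, here and in A549 below, are therefore not read as results about the members.

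In A549 cells, 3 of 23 members passed for SF3B2 against eGFP, beside 7.02% of all genes. Of these, 1 was higher (3.42% of all genes) and 2 lower (3.6%), and 0 were above 2-fold (1.11%). The groups did not overlap in 10 members (30% of all genes). With library size alone 1 was higher and 1 lower, beside 5.17% of all genes called. ZFAS1 fell from 40.9, 47.8 and 42.1 CPM to 32.9, 31.4 and 31.3 (-0.44 ± 0.06, adjusted p = 0.00874). SNHG12 fell from 11.5, 12.4 and 11.1 to 9.58, 9.41 and 9.21 (-0.30 ± 0.06, adjusted p = 0.0342). DANCR read 12.2, 12.9 and 13.8 with eGFP and was higher with SF3B2, at 16.4, 16.3 and 16.8 (0.36 ± 0.06, adjusted p = 0.0177). Its A549 means were 16.2 CPM with scramble, 15.5 with snaR-A, 16.5 with SF3B2 and 12.95 with eGFP. The eGFP group was thus the low one, and SF3B2 stood near scramble. All 3 of these genes were among those whose groups did not overlap. The calls were fragile, since between 0 and 5 members passed when 1 library was left out, beside 1.72 to 14.7% of all genes. None of the 3 was left without SF3B2 replicate 2 or without SF3B2 replicate 3, and without eGFP replicate 3 they were joined by SNHG1 (-0.21) and SNHG3 (-0.33).

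No member passed in A549 for snaR-A against scramble (0 of 24, beside 0.0185% of all genes, 3 members at an unadjusted p under 0.05) with the quasi-likelihood test, the exact test or DESeq2. Every fit without 1 of the 6 libraries also gave 0. SNHG15 read 10.03, 10.9 and 13.5 CPM with scramble and 12.9, 11.98 and 12.7 with snaR-A. SNHG3 read 92.8, 98.2 and 84.6 with scramble and 95.6, 95.7 and 84.4 with snaR-A. In both genes the groups overlapped. For eGFP against scramble 0 of 24 passed (1.49% of all genes, 1 member at an unadjusted p under 0.05). With the exact test 0 passed and with DESeq2 1 passed, beside 1.96% and 2.47% of all genes. That member was DANCR, which was lower with eGFP (-0.33, adjusted p = 0.0405). DANCR also passed with all 12 A549 libraries in one fit (-0.33, adjusted p = 0.0318, beside 2.18% of all genes). Without scramble replicate 3 the members called were SNHG5 and SNHG32, beside 1.35% of all genes.

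For SF3B2 against scramble in A549, 0 of 23 passed (0.233% of all genes, 11 members at an unadjusted p under 0.05, 0 with the exact test and 1 with DESeq2, beside 0.997% and 1.75% of all genes). This count rested on scramble replicate 3, the library with 8773 CPM of SF3B2. Without it 10 of 23 members passed, beside 21.9% of all genes. SNHG5 (-0.57), EPB41L4A-AS1 (-0.52), ZFAS1 (-0.40), SNHG12 (-0.37), SNHG26 (-0.31), SNHG3 (-0.30) and SNHG4 (-0.20) were lower, and SNHG28 (1.06), SNHG15 (0.46) and SNHG29 (0.33) were higher. SNHG28 shares 83.9% of its sequence words with other genes, so its counts are uncertain. SNHG5 read 33.0, 33.7 and 22.7 CPM in the scramble libraries and 23.6, 22.0 and 22.2 with SF3B2, so that the third scramble library lay with the SF3B2 group. EPB41L4A-AS1 showed the same order, at 31.9, 30.4 and 23.96 with scramble and 22.0, 21.2 and 22.3 with SF3B2.

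Whether an effect differed between the lines was tested as an interaction over the 12 libraries concerned, as the HEK293T change minus the A549 change. For snaR-A against scramble, 6 of 25 members passed (24%, beside 11.4% of all genes), 3 in the higher (6.64%) and 3 in the lower direction (4.79%). SNHG32 alone was above 2-fold (2.35% of all genes). With DESeq2 the split was 3 higher and 5 lower, beside 17.8% of all genes called. SNHG15 (0.95 ± 0.13, adjusted p = 0.00205), SNHG17 (0.64 ± 0.15, adjusted p = 0.0209) and SNHG32 (6.45 ± 1.36) rose more in HEK293T. SNHG3 (-0.53 ± 0.09, adjusted p = 0.00596), SNHG7 (-0.55 ± 0.12, adjusted p = 0.0159) and SNHG1 (-0.63 ± 0.17, adjusted p = 0.0357) had a lower change there. The A549 changes of these genes other than SNHG32 were at most 0.17 in size, and that of SNHG32 was -2.76. SNHG3, SNHG7, SNHG15 and SNHG32 passed in each of the 12 fits without 1 library, the fit without A549 snaR-A replicate 3 included. SNHG17 lost the call in 4 and SNHG1 in 5 of them. Without A549 scramble replicate 3, 8 of 25 members passed, 4 higher and 4 lower, beside 16.7% of all genes. The members that joined were SNHG29 (-0.41) and EPB41L4A-AS1 (0.38).

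For eGFP against scramble, 5 of 25 passed, beside 26.4% of all genes (10.8% higher and 15.6% lower), and 2 of them were above 2-fold (8.49%). They were SNHG15 (1.10 ± 0.19), SNHG17 (0.91 ± 0.15) and SNHG32 (6.11 ± 1.12) in the higher and SNHG1 (-0.62 ± 0.17) and SNHG3 (-0.62 ± 0.14) in the lower direction. SNHG1 lost the call in 6 of the 12 fits without 1 library, that without A549 scramble replicate 3 among them. In that same fit EPB41L4A-AS1 (0.52) passed. SNHG14 was not called in the main fit but passed without HEK293T eGFP replicate 3 (0.81), replicate 1 (2.64) or replicate 2 (2.59). With library size alone the split was 5 higher and 1 lower, beside 23.6% of all genes called. This test shares its scramble libraries with the one on snaR-A. For SF3B2 against eGFP, 2 of 24 passed (8.33%, beside 6.1% of all genes), 0 higher (3.52%) and 2 lower (2.58%). SNHG15 was above 2-fold (1.55% of all genes). With DESeq2 the split was 1 higher and 4 lower, beside 16.2% of all genes called. DANCR differed by -0.54 ± 0.10 (adjusted p = 0.0147), with a change of -0.20 in HEK293T and 0.36 in A549. In A549 the eGFP libraries of DANCR read below those of every other plasmid. SNHG15 differed by -1.05 ± 0.24 (adjusted p = 0.0331), with -0.76 in HEK293T and 0.31 in A549, and lost the call in 10 of 12 fits without 1 library.

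**Figure D4:**
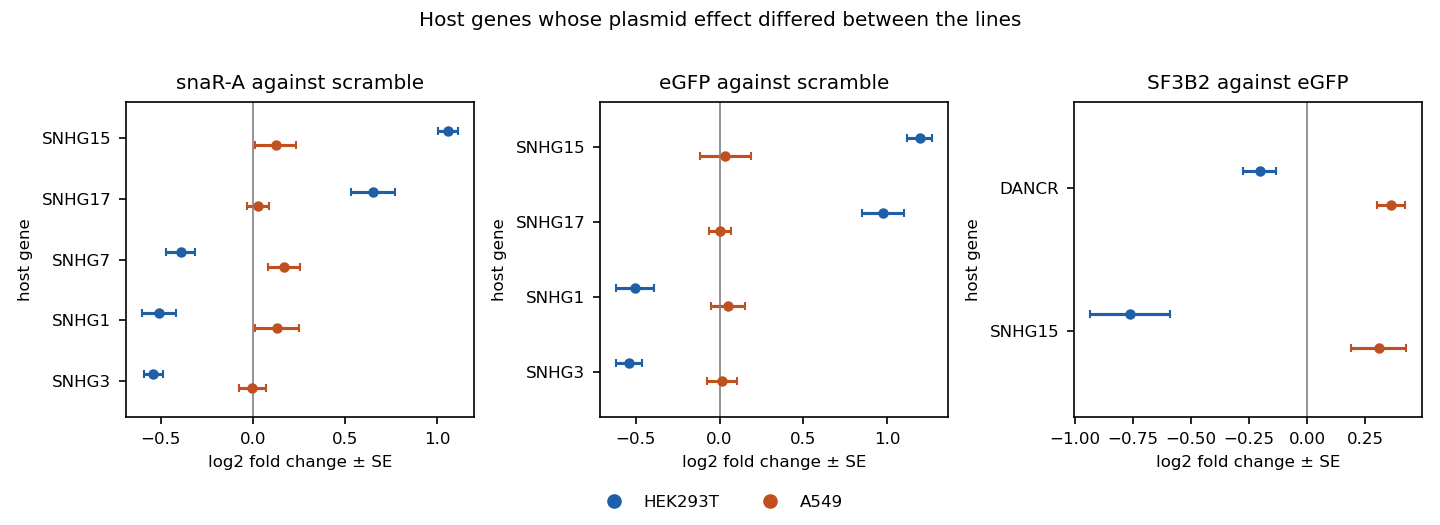
Log2 fold changes with SE in HEK293T and A549 for the host genes whose plasmid effect differed between the lines at an adjusted p under 0.05, SNHG32 left out for its scale. SNHG15 and SNHG17 lie right of 0 in HEK293T with snaR-A and eGFP while their A549 points lie near 0.

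Some widely studied hosts were called in few comparisons of plasmids. ZFAS1 read 8.09 ± 0.13 CPM (SD, n = 3) with scramble, 7.10 ± 0.35 with snaR-A, 7.65 ± 0.82 with eGFP and 7.58 ± 1.18 with SF3B2, and passed in none of the 4 comparisons there. Its snaR-A libraries all lay below its scramble libraries, however, and that change (-0.18 ± 0.07, adjusted p = 0.0638) passed with DESeq2 (adjusted p = 0.0373) and without snaR-A replicate 1 (0.0459). In A549 it read 38.2 ± 6.33, 38.1 ± 2.99, 43.6 ± 3.67 and 31.9 ± 0.88 in the same order. SNHG12 read 5.53 ± 0.73, 5.16 ± 0.91, 6.14 ± 0.31 and 4.98 ± 0.89 in HEK293T and 11.5 ± 1.07, 11.2 ± 0.54, 11.7 ± 0.68 and 9.40 ± 0.18 in A549. GAS5 in A549 read 45.0 ± 1.45, 48.4 ± 4.20, 42.1 ± 7.76 and 41.1 ± 1.75, and SNHG1 read 72.3 ± 7.52, 79.3 ± 12.3, 75.2 ± 8.86 and 68.4 ± 3.69. Neither gene passed in any A549 comparison of plasmids. SNHG4 read between 37.4 and 48.5 CPM over the HEK293T libraries and, like SNHG11, SNHG12, SNHG16, SNHG27, SNHG28, ZFAS1 and EPB41L4A-AS1, passed in no HEK293T comparison of plasmids with the quasi-likelihood test on all libraries. Under an alternative fit SNHG4 and SNHG11 passed for snaR-A against scramble (adjusted p = 0.0216 without scramble replicate 2 and 0.0268 without snaR-A replicate 3), and EPB41L4A-AS1 for eGFP against scramble with DESeq2 (0.0220) and library size alone (0.0285). SNHG30 ranged from 0.188 to 6.62 CPM over the A549 libraries.

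Genes around the snoRNA pathway were counted in the same comparisons, in 7 lists. Their counts in HEK293T stand beside 17.8% of all genes higher and 18.5% lower with snaR-A, 22.9% and 25.8% with eGFP, and 16.8% and 17.5% with SF3B2 against scramble, with a median over all genes of -0.01 in each. Of the 17 protein-coding snoRNA hosts tested (genes such as RPL3 and EIF4A2 whose introns also carry snoRNAs), 1 rose and 13 fell with snaR-A, with a median of -0.33, and 2 rose and 13 fell with eGFP, with a median of -0.48. With SF3B2 against scramble, 1 rose and 11 fell, with a median of -0.48. With snaR-A, EIF4A2, a translation initiation helicase, fell by 0.57 on the log2 scale. In A549 none of the 17 passed for snaR-A or for eGFP against scramble, and RPL13 alone passed (0.30) for SF3B2 against eGFP. In HEK293T none of the genes of these 7 lists passed for SF3B2 against eGFP. The other list genes called in A549 were UPF1 (0.25) and SMG8 (0.19), both NMD factors, and SNU13 (0.24), a box C/D protein, all for SF3B2 against eGFP, where 7.02% of all genes passed.

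The smaller lists stand beside totals of 36.3% of all genes called with snaR-A, 48.8% with eGFP and 34.3% with SF3B2 against scramble. Of the 10 snoRNP assembly factors, 5 rose and 0 fell with snaR-A and likewise with eGFP, and 5 rose and 1 fell with SF3B2 against scramble. NUFIP1, which brings the box C/D proteins together, rose by 0.39 with snaR-A. Of the 3 box C/D proteins tested, 1 rose with snaR-A, namely NOP58 (0.40 ± 0.05), a core protein of the particle, and 0 fell. With eGFP 2 of them rose and SNU13 fell (-0.26), and with SF3B2 against scramble 1 rose and SNU13 fell (-0.41). Of the 4 box H/ACA proteins none passed with snaR-A, while NHP2 fell with eGFP (-0.28) and GAR1 rose with eGFP (0.29) and with SF3B2 against scramble (0.34). Of the 5 release and trimming factors, 1 rose with snaR-A (DBR1, the lariat debranching enzyme, 0.18 ± 0.04), 3 with eGFP and 3 with SF3B2 against scramble. Of the 10 NMD factors, 4 rose with snaR-A, led by SMG6, the endonuclease of the pathway (0.46 ± 0.04), 6 rose with eGFP, 5 rose with SF3B2 against scramble, and 0 fell. Of 7 NMD-sensitive mRNAs, 1 rose and 3 fell with snaR-A, 0 rose and 3 fell with eGFP, and 0 rose and 4 fell with SF3B2 against scramble. Medians of the lists other than the protein-coding hosts lay between -0.30 and 0.28 in these comparisons.

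The excised small RNAs themselves were almost out of reach of these libraries. Of the 141 hosted small RNAs, 130 had a row in the count table, 113 were listed at 0 in every library, and the highest count of any was 163. SNORA73B of SNHG3 read a median of 0.187 CPM in HEK293T and 0.580 in A549, and SNORA71B of SNHG17 read 0.252 and 0.427. Their hosts were also higher in A549. For SNHG17 that difference was lost with library size alone (-0.0347, adjusted p = 0.753), and its libraries overlapped between the lines. In HEK293T, SNORA71B read 0.252 ± 0.07 CPM with scramble and 0.248 ± 0.05 with snaR-A, and SNORA73B read 0.192 ± 0.02 and 0.200 ± 0.03. Between scramble and snaR-A these levels differed by less than the spread between replicates, whereas the hosts SNHG17 and SNHG3 had changed. With SF3B2, SNORA73B read 0.124 ± 0.03, below scramble as its host SNHG3 was, and with eGFP it read 0.216 ± 0.06. SNORA71B read 0.249 ± 0.04 with SF3B2 and 0.262 ± 0.01 with eGFP. SNORA73B had only 25 to 72 counts in each HEK293T library, and these levels were not tested. Poly(A) selection leaves out most mature snoRNAs, so no statement on their amount follows.

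In all, 4 members passed the filter on low counts in none of the 12 comparisons. SNHG8 was listed at 0 in every library. SNHG18 had 1 count in 1 library, SNHG25 at most 3 counts and SNHG22 at most 9. SNHG31 reached 30 counts at most, was tested in 3 comparisons (the snaR-A and eGFP effects compared between lines, and HEK293T against A549), and was called in none of them nor in any alternative fit. A gene listed at 0 can be a failed assignment between transcripts, and SNHG25 shares 28.8% of its sequence words with other genes.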

How the data were processed

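Reads were trimmed with Trim Galore and quantified with Salmon. The table the authors deposited gives, for each Ensembl gene and library, an estimated count, not normalized between libraries. The submitters' processing notes name build hg38. The transcriptome release and the tool that summed transcripts are not given in the sources used here. Of the values, 51% were not whole, and all were rounded. Library totals were 195186194 to 260878268 counts, so that the upper limit behind a reading of 0, set at 3 counts, was 0.0115 to 0.0154 CPM (counting error only). Symbols matched 54903 of 60236 IDs, and the rest held 2.53% of counts.

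Samples were grouped by their titles, and A549 snaR-A replicate 3, whose fields disagree, was kept with A549. Each comparison was filtered with filterByExpr, scaled by TMM and tested with edgeR 4.0.16's quasi-likelihood F-test (R 4.3.3) with Benjamini-Hochberg adjustment over all genes tested. A call is an adjusted p under 0.05. The standard error is the absolute log2 fold change divided by the square root of F. CPM in the text are on 1 TMM scale over the 24 libraries. Two-sided exact permutation tests on CPM gave p = 0.1, the smallest for 3 against 3, for every member the naming rule below selected in a comparison of plasmids. Alternatives were edgeR's exact test, DESeq2 1.42.0, RLE scaling, library size alone, other count filters, a wider fit, a block for the replicate number, and fits that omitted 1 library in turn. Fits were tested on simulated data.

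The members and lists were chosen with earlier results of these data known. By rule, values by library are given for up to 4 called members per direction whose groups did not overlap and whose average reached 1 log2 CPM, and group values for GAS5, SNHG1, ZFAS1 and SNHG12 throughout. Other members given by library (SNHG32 with snaR-A, SNHG14 and SNHG15 with SF3B2 or snaR-A, and SNHG3, SNHG5, SNHG15 and EPB41L4A-AS1 in A549) were chosen after their values were seen. At most 2 called genes are named per list, and 1 such gene is not reported here. Positions and small RNAs came from GENCODE 44 on GRCh38 and start sites from RefSeq. The study describes independent repeats with biological replicates, those for sequencing processed on the same day. The labels do not say what a replicate was, and p-values measure the spread between these samples, which may in part be technical. Same-numbered samples did not deviate together, and no 2 replicates of a group agreed within sampling noise. Libraries of different groups were not compared in that way. Levels of different genes were not compared, since CPM are not per length.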

Additional observations from a re-analysis of the deposited data

Results flagged for a closer look

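The effect of a plasmid differed between HEK293T and A549, by the interaction term at an adjusted p under 0.05, for 13 pairs of a gene and a plasmid (HEK293T change minus A549 change, log2). For snaR-A against scramble these were SNHG32 (6.45), SNHG15 (0.95), SNHG17 (0.64), SNHG3 (-0.53), SNHG7 (-0.55) and SNHG1 (-0.63). For eGFP against scramble they were SNHG32 (6.11), SNHG15 (1.10), SNHG17 (0.91), SNHG1 (-0.62) and SNHG3 (-0.62), from the same scramble libraries. For SF3B2 against eGFP they were DANCR (-0.54) and SNHG15 (-1.05). SNHG32 rested on readings under 3 CPM in every library, and in A549 it ranged from 0.00991 to 1.07 CPM.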

How the results depend on the processing

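No member passed in HEK293T for SF3B2 against eGFP in the main analysis. There 2 passed with the exact test, 3 with DESeq2 and 2 with all 12 libraries of the line in one fit, beside 2.85%, 9.19% and 8.69% of all genes. For A549 eGFP against scramble 1 passed with DESeq2 (2.47% of all genes) and 1 with all 12 libraries together (2.18%), in both cases DANCR. For A549 SF3B2 against scramble 1 passed with DESeq2 (1.75%). For the SF3B2 effect compared between lines 5 passed with DESeq2, beside 16.2% of all genes and 6.1% in the main fit. With library size alone, SNHG16 (0.18), SNHG29 (0.16), SNHG5 (0.0293), SNHG7 (0.0119) and SNHG20 (0.27) reversed between the lines, on a scale whose median over all genes was 0.47, and in the scramble libraries alone SNHG29 was at 0.15. Leaving out 1 library gave 6 to 11 called members for HEK293T snaR-A against scramble, 0 to 3 for SF3B2 against eGFP, 9 to 13 for eGFP against scramble and 8 to 12 for SF3B2 against scramble. The shares of all genes called in those fits were 22.1 to 35.6%, 0.00431 to 8.09%, 37 to 46.5% and 16.8 to 38.8%. In A549 the ranges were 0 to 0, 0 to 5, 0 to 2 and 0 to 10 in the same order, beside 0.0045 to 0.239%, 1.72 to 14.7%, 0.927 to 1.47% and 0 to 21.9% of all genes. They were 4 to 8, 1 to 5 and 4 to 6 for the snaR-A, SF3B2 and eGFP effects compared between lines, and 21 to 22 between the lines. For the snaR-A and SF3B2 effects the shares of all genes were 4.96 to 16.7% and 1.66 to 17.9%. Those for the eGFP effect and between the lines are not given here. None of these ranges is read as a result about the members. The cause of these changes was not tested. With the replicate number as a block, the SF3B2 effect compared between lines kept 1 of 2 calls, beside 1.69% of all genes called. The numbers are only names, since same-numbered samples correlated at a median of -0.00 in both lines. For single called members, 489 alternative values kept direction and call, 27 lost the call and 6 reversed. Of the values without 1 library, 801 kept the call and 75 lost it, and none reversed. Members under 1 CPM are limited by depth.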
